A study of Homo sapiens with 4 samples.

Results

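MAZ is a zinc finger transcription factor that binds GC-rich promoter DNA and is named for its binding at the MYC gene. The values here concern its transcript, as RNA recovered in a study of the RNA helicase MOV10, and not the protein. The MAZ part of the data was chosen by genomic position, as the listed regions that overlap chromosome 16 from 29817427 to 29823000 on the plus strand of hg19. It held 4 of the 1181 listed regions, with 24 of the 4021 aligned reads of experiment 1 and 92 of the 6032 of experiment 2. The gene was selected from earlier results on these reads, in which 1 of its regions was the widest of the list, so its width, reads and scores are given as a description.

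The libraries were made from HEK293F, a line of human embryonic kidney cells kept in suspension culture, after UV crosslinking and with no other treatment or genotype named in the labels. The MOV10 pull-down used an antibody to MOV10 and the control pull-down an irrelevant rabbit antibody to zebra finch FMRP, each in 2 experiments, which gave 2 libraries a group and 4 in all. The labels name a single read list per experiment for both of its pull-downs, so each value below is of a list and not of a pull-down, and no enrichment over control was computed. The experiments are replicates of the same design, and a difference between them is a difference between replicates. By its name, the deposited region list holds regions present in both experiments, and all 1181 had at least 1 read in each. That a MAZ region has reads in both experiments thus follows from the listing and is not a result.

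MOV10 belongs to the UPF1-like helicases, moves along RNA in the 5' to 3' direction, and is known to associate with 3' untranslated regions (UTRs), Argonaute proteins and the fragile X protein FMRP. In iCLIP a protein is linked to RNA by UV light, the RNA is trimmed, and the complementary DNA often ends beside the linked base. The 5' end of an aligned read thus lies next to a candidate contact, while its 3' end reflects where the RNA was cut. Each primer carried a barcode with random bases. These barcodes are printed because random bases can tell molecules from amplified copies. Capitals mark the fixed bases that name a library, and n marks a random base.

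MOV10 pull-down, experiment 1: nnnTGGAnn

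control pull-down, experiment 1: nnnGTTAnn

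MOV10 pull-down, experiment 2: nnnGGCCnn

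control pull-down, experiment 2: nnnCCGCnn

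The read lists have no column for the barcode or its 5 random bases. Molecules were therefore approximated by distinct fragments, in which reads of an experiment with the same strand and ends count once. The second to last number of a read name was taken as the copies of that read, an inference from the names. The sequence at MAZ is not printed, because no hg19 sequence was used here.

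The 4 MAZ regions lay close together. The first region ran from 29821786 to 29821828 (43 nt), the second from 29821891 to 29821990 (100 nt), the third from 29822031 to 29822064 (34 nt) and the fourth from 29822099 to 29822264 (166 nt). Gaps of 62, 40 and 34 nt separated them, so the regions covered 343 of a span of 479 nt, or 71.6%. The span began 4359 nt after the start of the searched window and ended 736 nt before its end, in the downstream part of the window. The window held no read on the minus strand and no region outside this span. The lists hold only reads inside listed regions, so the lack of minus-strand reads restates that no minus-strand region was listed there.

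The working name of the set places it in the MAZ 3' UTR, the part of the messenger RNA after the stop codon. Exon and UTR limits on hg19 were not used here, so this placement was not checked against an annotation of the same build. For scale only, GENCODE release 29, which is on another build, gives 13 coding MAZ transcripts with an annotated stop codon, with 3' UTRs of 10 to 1110 nt. No position was carried over from it. In RefSeq gene order MAZ lies between KIF22 and PRRT2, which encode a kinesin and a synaptic membrane protein. The nearest listed regions of chromosome 16, which held 64 in all, lay 6136226 nt before and 194464 nt after the MAZ span.

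When regions of a strand up to 1000 nt apart were joined, 69 of 1079 loci held at least 2 regions and 9 held at least 4. MAZ was the shortest of these 9, and the next, on chromosome 17 from 41167020 to 41167505, spanned 486 nt. It was also the most fully covered of the 9, at 71.6% against 55.1% for that locus. Its covered length of 343 nt ranked 3 of the 9. The fourth MAZ region, whose width was known when the gene was chosen, supplied 166 of those 343 nt. The ranks by coverage thus rest partly on that width. All these ranks describe the list and were not tested.

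**Figure D1:**
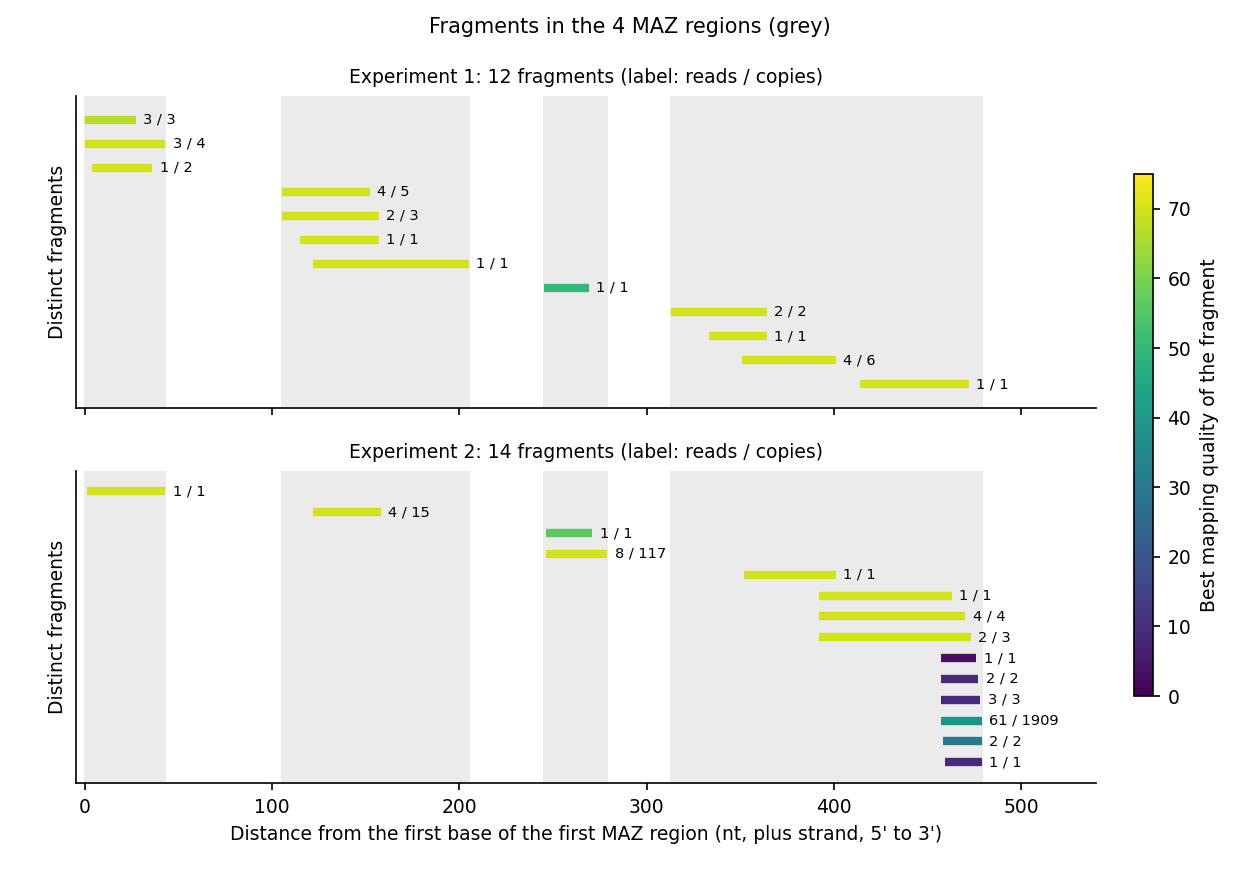
Distinct fragments in the 4 MAZ regions (grey), by distance in nt from the first base of the first region, in experiment 1 (top, 12 fragments) and experiment 2 (bottom, 14 fragments). Bars are coloured by the fragment's best mapping quality and labelled with reads and summed copies. Experiment 2 has a stack of short fragments at the 3' limit of the fourth region, where experiment 1 has none.

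The first region had more reads in the list of experiment 1, while its fragments were few in both lists. It had 7 reads, 3 distinct fragments and 9 copies in experiment 1, against 1 read, 1 fragment and 1 copy in experiment 2. Of the 1181 regions, 80 had at least 7 reads and 100 at least 3 fragments in experiment 1, where the median region had 2 reads and 1 fragment. In experiment 1, 6 of the 7 reads began at 29821786, and in experiment 2 the only read began 1 nt downstream, at 29821787. Both experiments had a fragment that ended at 29821828. Mapping quality, the deposited score that runs from 0 to 70 and was read as the confidence of placement, ranged from 37 to 70 in experiment 1 and was 70 in experiment 2.

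The second region held fragments with several 5' ends, and its width of 100 nt rested on 1 long fragment of experiment 1. Experiment 1 had 8 reads in 4 fragments, with 10 copies and 5' ends at 29821891, 29821901 and 29821908. Experiment 2 had 4 reads in 1 fragment, from 29821908 to 29821943, with 15 copies. The base 29821908 was the only 5' end of the MAZ span found at exactly the same position in both experiments. There the fragment of experiment 1 was 83 nt long and that of experiment 2 was 36 nt, so the 5' ends coincided and the 3' ends did not. That 83-nt fragment ended at 29821990, while the other fragments of the region ended between 29821937 and 29821943. All 12 reads of this region had the top score of 70.

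The third region had more reads in the list of experiment 2, while its fragments were few in both lists. Experiment 1 had 1 read of 24 nt that began at 29822031, with 1 copy and a mapping quality of 50. Experiment 2 had 9 reads in 2 fragments with 118 copies, and all 9 began at 29822032, which is 1 nt downstream. Of these copies, 117 belonged to the fragment from 29822032 to 29822064, whose most copied read had 46 copies. The copies of the region were spread over the 3 groups of read names, 37 in names that start with 06, 32 in names that start with 07 and 49 in names with no prefix. Median mapping quality in experiment 2 was 70, with 1 of the 9 reads at 42.

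The fourth region, the widest of the list, was among the better covered in both lists. Experiment 1 had 8 reads in 4 fragments, with 10 copies and 5' ends at 29822099, 29822119, 29822137 and 29822200, all with a mapping quality of 70. Experiment 2 had 78 reads in 10 fragments, with 1927 copies and 5 distinct 5' ends. In experiment 1, 58 of the 1181 regions had at least 8 reads, 60 had at least 4 fragments and 35 had at least 4 distinct 5' ends. In experiment 2, 19 regions had at least 78 reads, 14 had at least 10 fragments and 3 had at least 5 distinct 5' ends. A stack of short reads, described next, supplied 70 of the 78 reads and 6 of the 10 fragments. It also supplied 3 of the 5 distinct 5' ends, so these ranks rest largely on it. The rest of the region held 4 fragments and 2 distinct 5' ends in experiment 2. The median listed region had 1 read, 1 fragment and 1 distinct 5' end in experiment 2.

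Of the 78 reads of experiment 2 in the fourth region, 70 formed a stack at its 3' limit. They were 19 to 22 nt wide, began within 3 nt of each other at 29822243 to 29822245, and carried 1918 of the 1927 copies. A single fragment, from 29822243 to 29822264, held 61 of these reads and 1909 copies. Of the 1656 distinct fragments of experiment 2, it ranked 20 by reads and 16 by copies, and it held 2.17% of all copies of that list. Experiment 1 had no read in the stack. The stack lies inside a listed region, and no upper limit was computed for that 0.

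The stack was found in each group of read names, with 21 reads and 570 copies in names that start with 06, 28 reads and 598 copies in names that start with 07, and 21 reads and 750 copies in names with no prefix. In each group a single read carried most of the copies, 536, 548 and 721 in that order. Another 48 of the 70 reads had 1 copy each. Many reads with 1 copy thus surrounded 1 highly copied read in each group of names, at nearly the same ends.

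Longer reads covered part of the stack in both experiments. In experiment 1, 1 read of 58 nt from 29822200 to 29822257 overlapped its main fragment by 15 nt. In experiment 2, 7 reads of 71 to 81 nt in 3 fragments, all beginning at 29822178, overlapped it by 6 to 16 nt. All 8 of these longer reads had a mapping quality of 70.

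The median mapping quality of the fourth region was 70 in experiment 1 and 9 in experiment 2, a difference of -61, and 3 of the 1181 regions, this one included, fell as low or lower. This median counts each read once, whatever its copies. In the stack, 51 reads had scores under 30, with 92 copies in all and at most 9 copies each. The 18 reads with a score of 38 carried 1825 copies, among them the 3 reads of over 100 copies. Reads with a score of at least 30 held 95.2% of the copies of the stack. Weighted by copies, the median score of the region in experiment 2 was 38.

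A score of 38 was the highest of any 22-nt read in either list, reached by 129 of 286 such reads, also outside MAZ. The ceiling of the score rose with read width, from 9 at 20 nt to 30 at 21 nt and 38 at 22 nt, and reached 70 from 28 nt. The heavily copied reads of the stack thus had the top score for their width, while most reads with few copies did not. By this measure 23 of 24 MAZ reads of experiment 1 and 44 of 92 of experiment 2 were at the ceiling for their width, against 67.8% and 55.7% of all reads. By copies, 96.7% and 95.7% of the MAZ copies were at the ceiling, against 84.6% and 77.9% of all copies. What sets reads of the same ends at 9 and at 38 apart was not tested, since the lists hold no read sequences.

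**Figure D2:**
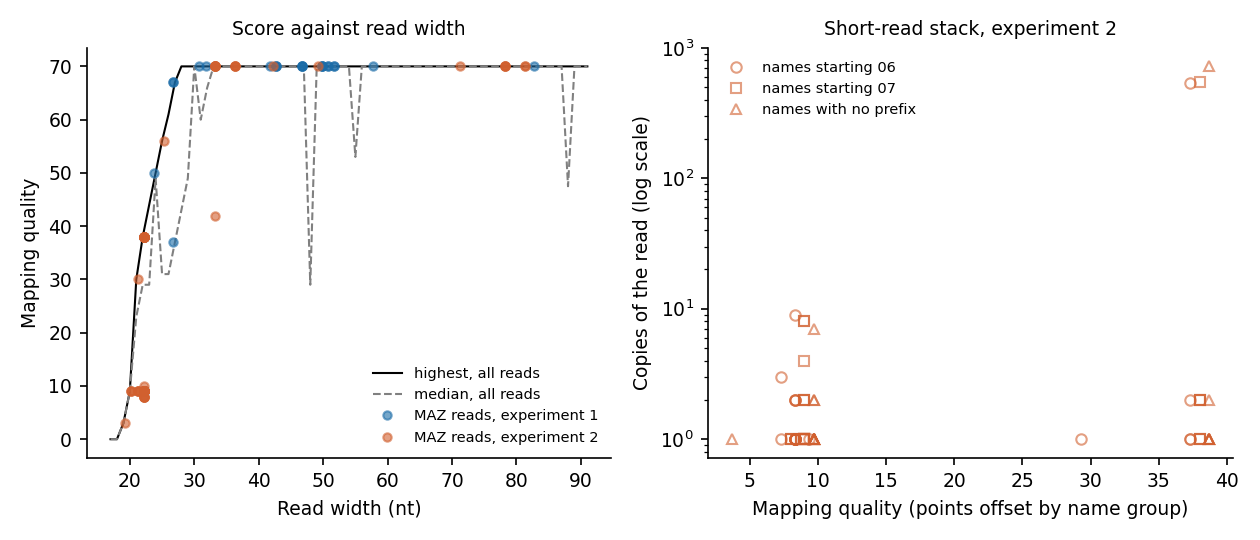
Left, mapping quality against read width in nt, with MAZ reads as points (experiments slightly shifted apart) over the highest (solid line) and median (dashed line) score of all reads of each width. Right, copies (log scale) against mapping quality for the 70 reads of the short-read stack of experiment 2, with symbols for the 3 groups of read names; in each group the read with most copies, 536 to 721, has a score of 38.

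The comparison between experiments asked whether the share of each region in the list differed between replicates. By distinct fragments, 0 of the 4 MAZ regions differed (Fisher's exact test, two-sided, adjusted p = 1 for each by Benjamini-Hochberg over 1181 regions), where 0.423% of all regions were called higher in experiment 2. At an unadjusted p under 0.05 the count was also 0, against 2.03% of all regions. The log2 ratios of shares, experiment 2 over experiment 1, were -1.46, -1.87, 1.13 and 1.45 from the first to the fourth region. The unadjusted p of Fisher's exact test was 0.106 for the fourth region and at least 0.377 for the others. Of the 10 fragments of the fourth region in experiment 2, 6 belonged to the stack and 4 did not, where experiment 1 had 4. With 1 to 10 fragments a region, this test can detect only large differences.

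By aligned reads, the share of the fourth region was 0.199% in experiment 1 and 1.29% in experiment 2, a log2 ratio of 2.70. The log2 ratios of the first, the second and the third region were -3.39, -1.59 and 2.58. Fisher's exact test over reads put 2.12% of all regions higher in experiment 2, and the fourth MAZ region was among them. No difference is drawn from that, because each experiment is 1 list, 61 of the 78 reads share both ends, and the gene was chosen with its reads known. With reads of mapping quality 30 or more the fourth region held 8 and 27 reads, a log2 ratio of 1.24. Outside the stack it held 8 reads in each experiment. The stack had reads of experiment 2 alone, so leaving it out could only lower the share in experiment 2.

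The span as a whole held 12 of 1806 distinct fragments in experiment 1 (0.664%, 95% exact Clopper-Pearson interval 0.344 to 1.16) and 14 of 1656 in experiment 2 (0.845%, interval 0.463 to 1.41), which did not differ detectably (Fisher's exact test, adjusted p = 1). By reads it held 0.597% (interval 0.383 to 0.887) and 1.53% (interval 1.23 to 1.87), and by copies 0.182% and 2.34%. Outside the stack it held 24 reads in 12 fragments of experiment 1 and 22 reads in 8 fragments of experiment 2. The intervals cover counting error alone, and reads with the same ends are not independent.

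**Figure D3:**
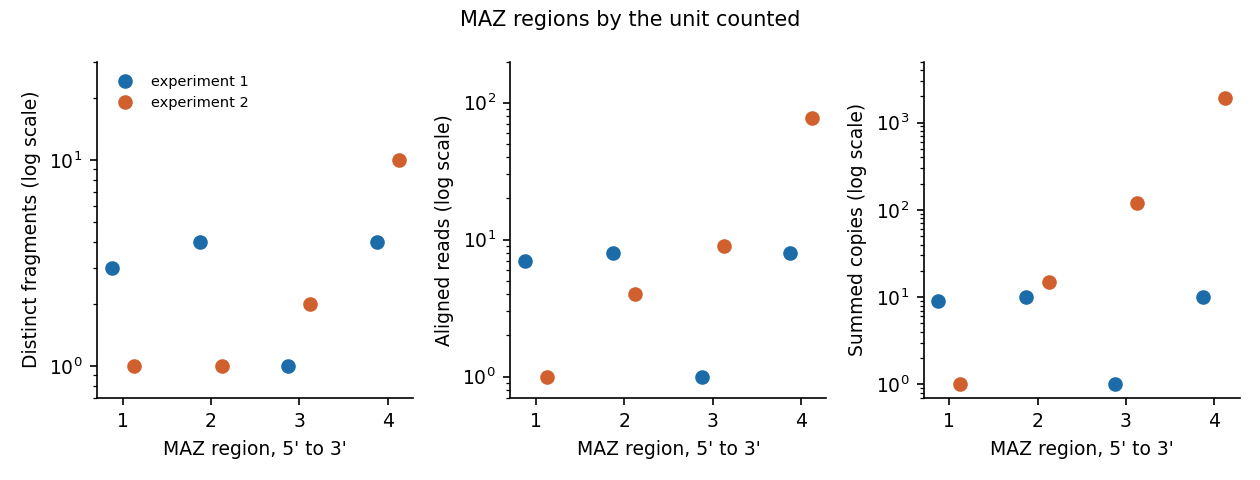
Distinct fragments, aligned reads and summed copies (log scales) in each MAZ region, numbered 5' to 3', with 1 point per experiment and no error bars because each experiment is 1 list. The fourth region separates the experiments more by copies, 10 against 1927, than by fragments, 4 against 10. Of those 10 fragments, 6 belong to the stack of short reads. Counts are not scaled to the lists, which held 16518 copies in experiment 1 and 88074 in experiment 2.

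Reads lay further upstream in the span in experiment 1. The first and second regions held 15 of 24 reads in experiment 1 (62.5%) and 5 of 92 in experiment 2 (5.43%), or 5 of 22 (22.7%) without the stack. By distinct fragments they held 7 of 12 (58.3%) and 2 of 14 (14.3%), or 2 of 8 (25%) without the stack. This contrast was noticed in the values and was not tested.

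The 5' ends of the span were partly shared. Experiment 1 had 10 distinct 5' ends and experiment 2 had 8, and 4 of each lay within 1 nt of one in the other experiment, 1 pair in each region. Those 4 positions held 12 of the 24 reads of experiment 1 and 15 of the 92 of experiment 2. The share over all 5' ends of the lists was not computed, so these counts are not read as particular to MAZ. The 5' end with most reads in experiment 2, 29822243 with 67 reads and 1915 copies, lay 43 nt from the nearest 5' end of experiment 1. Fragments that ended alike in both experiments, and began alike or with experiment 2 shifted downstream by 1 nt, were found in 2 of the 4 regions, the first and the fourth, against 86.3% of all 1181 regions. In both, the offset of the 5' end was 1 nt. Exactly the same ends were found in 18.9% of all regions. An offset of 1 nt was thus common over the list and is not particular to MAZ.

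Some MAZ fragments recurred across groups of read names. In experiment 1, 6 of the 12 MAZ fragments occurred in at least 2 of the 3 groups, and in experiment 2, 8 of 14. The share over all fragments was not computed, so these counts are not read as particular to MAZ. Whether such fragments are separate molecules or 1 library sequenced in several runs is not given in the sources used here. Copies differed far more than fragments, with a most copied MAZ read of 3 copies in experiment 1 and of 721 in experiment 2. The whole lists also differed more in copies, 16518 in experiment 1 and 88074 in experiment 2, than in distinct fragments, 1806 and 1656. A larger contrast by copies is thus not particular to MAZ.

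**Figure D4:**
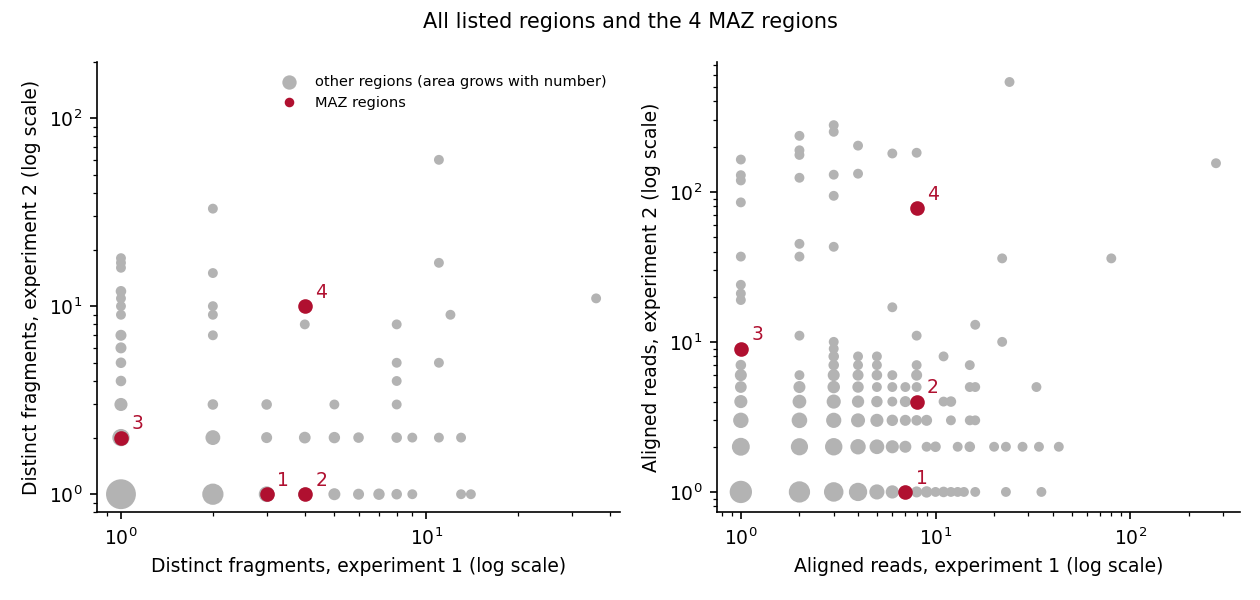
All 1181 listed regions by distinct fragments (left) and aligned reads (right) in experiment 1 and experiment 2, on log scales; grey points are other regions, with area growing with the number at that position, and red points are the MAZ regions by number. The fourth MAZ region has 4 and 10 fragments and 8 and 78 reads, and the first region has more reads in experiment 1.

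The regions most like the fourth MAZ region in reads were sought by the Euclidean distance over log2(reads + 1) in 6 values, the 3 groups of read names in each experiment. The 5 nearest lay at distances of 1.89 to 2.35, against a median distance of 7.80 over all other regions. They were on chromosome 5 from 1318034 to 1318082 (3 and 94 reads in experiments 1 and 2), chromosome 10 from 86177546 to 86177603 (4 and 132), chromosome 17 from 36882299 to 36882331 (6 and 180), chromosome 3 from 47469104 to 47469160 (8 and 182) and chromosome 11 from 33098691 to 33098734 (3 and 130). Their widths were 33 to 58 nt against 166. The fourth MAZ region is the widest of the list, so that any other region is narrower was fixed in advance. In experiment 1 they had 1 or 2 fragments, where the MAZ region had 4. Their median mapping qualities in experiment 2 were 70, 70, 27, 70 and 49 in that order, against 9 at MAZ. These are likenesses in read numbers alone, and genes are not named for want of an hg19 annotation.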

How the data were processed

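Deposited were 2 lists of aligned reads, 1 per experiment, and 1 list of 1181 regions on hg19. Per the submitters' processing notes, the authors' tools were Novoalign, bedtools, SAMtools and CASAVA 1.8.2. The name of the region list says that its regions were present in both experiments. How else regions were called, and whether control reads were used, is not given in the sources used here. Whole numbers from 0 to 70 fill the deposited score column, and were taken as mapping quality by inference. Positions are 1-based. That list lines are reads is inferred from their unique names.

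MAZ regions were those on the plus strand overlapping the window by at least 1 nt. Distinct fragments were the main unit, and aligned reads an alternative. Shares were compared over all listed regions by Fisher's exact tests, two-sided and adjusted by Benjamini-Hochberg at 0.05, which compare the lists, not conditions. The script was tested on simulated data. Every MAZ region and fragment is described, and the 5 regions nearest in reads are named by rule. The members, lists and tests were chosen with earlier results of these data known. A planned count of other zinc finger genes was not run, because the annotation at hand (GENCODE release 29, RefSeq) is of another build. Only lengths and gene order were used from it. Tools were Python 3.11.15, scipy 1.17.1, numpy 2.4.6, matplotlib 3.10.9 and pandas 2.3.3. Alternatives covered the unit, mapping quality of 30 or more, groups of read names, overlap, strand and end tolerance.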

Additional observations from a re-analysis of the deposited data

How the results depend on the processing

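Of 61 alternative values for 14 results, 50 stayed on the same side of the threshold in the same direction, or at a like value. All 4 regions lay wholly inside the window, had reads on 1 strand and held reads of mapping quality 30 or more in both experiments. For the share in the fourth region (log2 ratio 1.45 by fragments), the test over reads, which treats reads as independent, was past the threshold at 2.70 with all reads and at 4.01 and 3.29 in names starting with 06 and 07, and not in names with no prefix (1.68). The groups of names are parts of the same lists, and each holds reads of the stack. Passing in names starting with 06 and 07 is therefore not separate support. No difference is drawn from these tests, because the gene was chosen with its reads known. The log2 ratio of the fourth region was -0.57 by reads without the stack of short reads. That stack lies in experiment 2 alone, so a fall of the ratio was fixed by leaving it out, while the size of the fall was not. The first region, at -1.46, turned to 0.47 in names with no prefix. Counted as 1 locus the regions gave 0.35, the opposite sign of the first and second regions. Median mapping quality in experiment 2 moved from 70 to 63 in the third region, and from 9 to 34 in the fourth by distinct fragments, and to 38 in the fourth weighted by copies. Matching ends were found in 0 of the 4 regions at exactly the same ends, against 18.9% of all regions, and in 3 within 3 nt, against 90.1%. The cause of the other changes was not tested. The alternatives that left out the stack, weighted by copies, or combined reads with mapping quality, read names or the locus were chosen after seeing the data. In names starting with 06 and 07 the first and the third region had no reads in 1 experiment and gave no ratio. No replicate could be left out, since the comparison needs both lists. No paired analysis was possible because a read list is shared by both pull-downs of its experiment. The 1 to 10 fragments per region limit what can be detected.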
